A study of Homo sapiens with 16 samples.

Results

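The genes described here are the colony-stimulating factors CSF1, CSF2 and CSF3 and the chemokines CCL2, CCL5, CCL7, CCL20, CXCL10, CXCL11 and CX3CL1. They were taken by name, as factors known to act on myeloid cells and lymphocytes, and their symbols were matched to the Ensembl identifiers of the count tables. Of the 10 genes, 9 were matched among 57820 genes in the tables, and CCL5 was not analysed here because no row could be paired with its symbol.

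RNA-Seq was performed on sublines of MDA-MB-231 and MDA-MB-436, human triple-negative breast cancer cell lines of the mesenchymal subtype. Both lines carried the integrated 7TGP reporter, in which binding sites for TCF transcription factors drive eGFP and which also holds a puromycin resistance gene, and each line had been sorted by eGFP into a 7TGP-NEG and a 7TGP-POS subline. The sublines were sorted populations and not clones, and the study made them by repeated cycles of sorting and expansion. The replicates of a group came from the same subline, so the tests measure spread within sublines. Reporter activity therefore cannot be told apart from other differences between the sublines of a line. Cells were grown in low serum (0.5% FBS, collected on day 3) or in standard serum (10% FBS, collected on day 6), which gave 8 groups of 2 biological replicates and 16 libraries. No treatment was applied beyond the serum condition, and the reporter was shared by all groups. By the study's methods the lines were kept in different basal media, so cell line and medium cannot be told apart. The study's methods give ribosomal RNA depletion for the low serum libraries and poly(A) selection for the standard serum libraries, on different sequencers, so serum, day and library preparation cannot be told apart and no test was made between serum conditions.

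Colony-stimulating factors are secreted proteins that act through receptors on myeloid cells and their precursors: CSF1 (M-CSF) maintains monocytes and macrophages through CSF1R, CSF2 (GM-CSF) acts on granulocytes, macrophages and dendritic cells, and CSF3 (G-CSF) drives neutrophil production. Chemokines are small secreted proteins that bind G protein-coupled receptors and direct cell migration. CCL2 and CCL7 attract monocytes through CCR2, CCL20 attracts CCR6-bearing cells, CXCL10 and CXCL11 are interferon-inducible ligands of CXCR3 on T cells and natural killer cells, and CX3CL1 (fractalkine) is a membrane-anchored ligand of CX3CR1. Many of these genes are known to be transcribed through NF-kB, and CXCL10 and CXCL11 also through interferon-activated factors. The 7TGP reporter reads TCF-dependent transcription, the nuclear output of canonical Wnt signalling.

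CXCL10, CXCL11 and CCL20 are shown by sequence because they were higher in 7TGP-POS cells of one line and lower in those of the other. The runs hold the 250 bases before the annotated start, read 5′ to 3′ on the gene's strand in GRCh37, at chr4:76944651-76944900 on the minus strand, chr4:76957224-76957473 on the minus strand and chr2:228678308-228678557 on the plus strand. Capitals mark matches on either strand to the NF-kB consensus, the interferon-stimulated response element (GAAANNGAAA), the TCF/LEF motif (TCAAAG) and the AP-1 motif (TGANTCA).
CXCL10: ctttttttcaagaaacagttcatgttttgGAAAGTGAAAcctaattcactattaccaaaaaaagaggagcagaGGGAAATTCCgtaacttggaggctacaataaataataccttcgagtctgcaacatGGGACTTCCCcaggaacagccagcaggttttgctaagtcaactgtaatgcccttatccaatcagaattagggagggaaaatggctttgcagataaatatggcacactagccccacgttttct
CXCL11: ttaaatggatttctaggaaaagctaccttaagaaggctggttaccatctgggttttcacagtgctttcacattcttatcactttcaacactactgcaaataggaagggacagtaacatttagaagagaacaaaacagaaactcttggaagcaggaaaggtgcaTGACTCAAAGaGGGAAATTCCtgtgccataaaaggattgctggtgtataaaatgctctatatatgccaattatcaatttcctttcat
CCL20: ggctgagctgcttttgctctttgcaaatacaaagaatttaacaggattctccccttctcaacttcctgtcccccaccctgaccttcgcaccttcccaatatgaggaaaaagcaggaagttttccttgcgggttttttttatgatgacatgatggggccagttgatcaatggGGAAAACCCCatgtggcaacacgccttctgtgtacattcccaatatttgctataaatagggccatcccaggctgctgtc

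The promoter of CXCL10 held 2 matches to the NF-kB consensus and 1 to the interferon-stimulated response element. In CXCL11 the AP-1 and TCF/LEF matches overlapped and lay directly before an NF-kB match, while CCL20 held an NF-kB match alone. An NF-kB match was present in 3 of the 9 promoters, against 5.904% of 19123 promoters of protein-coding genes of the same length. The TCF/LEF motif was found in 2 of 9 (CSF3 and CXCL11) against 9.036%. The AP-1 motif was found in 2 of 9 (CCL7 and CXCL11) against 4.649%, and the interferon-stimulated response element in 1 of 9 (CXCL10) against 2.85%. None of the 4 motifs was found in this window of CSF1, CSF2, CCL2 or CX3CL1. A match describes letters in a window and not a bound site.

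Total counts per library ranged from 27918418 to 32667756 in low serum and from 31827130 to 46044073 in standard serum. Replicates of a group correlated with r between 0.994 and 0.997 across genes on the log2 CPM scale, and in standard serum the replicates of the 7TGP-POS subline of MDA-MB-436 were the least alike, with a median SD of 0.0993 on the log2 CPM scale. CPM is the count of a gene scaled to the total count of its library, and TPM, which also divides by transcript length, was used wherever levels of different genes are compared. The mesenchymal marker VIM ranged from 659 to 5044 CPM, while CDH2, the mesenchymal cadherin, did not exceed 1.55 CPM in MDA-MB-231 and ranged from 135 to 245 CPM in MDA-MB-436. CDH1, the epithelial cadherin, did not exceed 0.401 CPM, but the epithelial keratins KRT8 (258 to 731 CPM) and KRT18 (116 to 371 CPM) were present in every library and EPCAM ranged from 1.58 to 8.57 CPM. Among 10 leukocyte markers, AIF1 and CD3E had at most 3 counts in every library and the summed level of the list ranged from 4.82 to 20.7 CPM. Counting error alone allows up to 3 counts in a library where 0 were seen, and 3 counts was taken as the floor for each library.

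The 2 cell lines differed in which of these factors made up most of the signal. In MDA-MB-231, the 3 CSF genes held between 93.8% and 99.3% of the summed TPM of the 9 genes in every library. In MDA-MB-436 they held between 30.0% and 44.6%, and chemokines held the rest. In MDA-MB-231 7TGP-NEG in standard serum, the order of mean TPM ran from CSF1 (408 ± 21.4, SD, n = 2) to CSF2 (167 ± 5.05) and CSF3 (24.5 ± 0.113), with every chemokine at 2.83 TPM or less. In MDA-MB-436 7TGP-NEG in low serum, CCL20 (87.2 ± 5.11 TPM), CSF1 (82.7 ± 4.99 TPM), CCL2 (72.9 ± 0.933 TPM) and CXCL10 (58.6 ± 1.36 TPM) were the highest, and the ranges of CCL20 and CSF1 overlapped. CX3CL1 stayed low on this scale, with group means between 0.115 and 1.72 TPM.

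**Figure D1:**
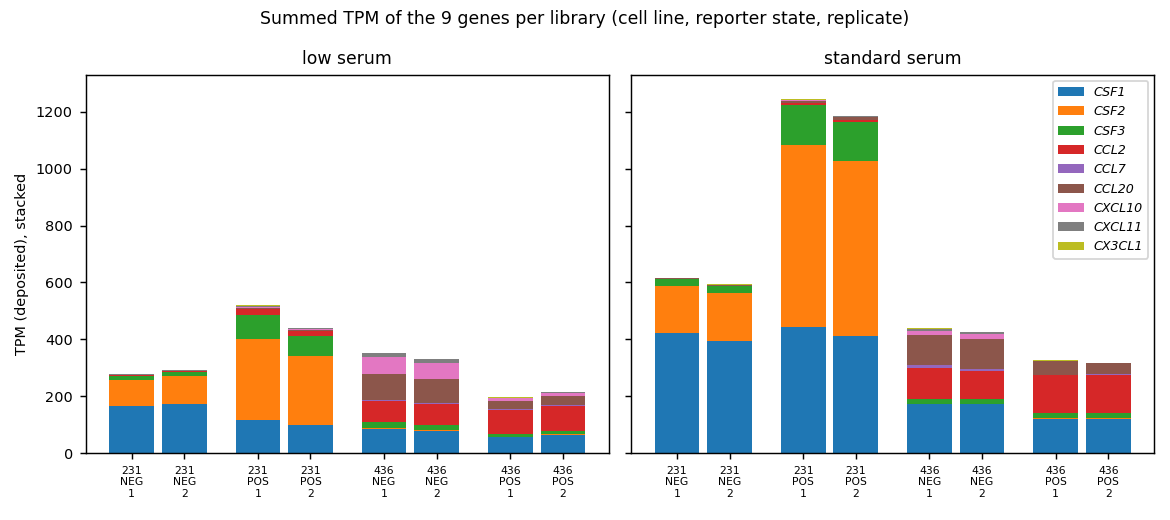
Deposited TPM of the 9 genes stacked for each library, by cell line, reporter state and replicate, in low serum (left) and standard serum (right). CSF1 and CSF2 fill most of each MDA-MB-231 bar, while CCL2, CCL20 and CXCL10 are visible in MDA-MB-436; the 2 serum conditions were prepared differently and their heights are not compared.

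The first comparison asked which factors differed between the 7TGP-POS and 7TGP-NEG sublines of MDA-MB-231. Higher levels in 7TGP-POS cells were called for 7 genes in each serum condition, CSF2, CSF3, CCL2, CCL20, CXCL10, CXCL11 and CX3CL1, and no gene was called lower. Lower values had an unadjusted edgeR p under 0.05 for 1 gene in low serum, CSF1, and for 0 in standard serum, and DESeq2 called 0 genes lower in both. Limma on log2(TPM + 0.1) called 6 genes higher and 1 lower in low serum, the lower one being CCL7, with 1 and 2 counts against 0 and 0. A gene was called when edgeR's quasi-likelihood test gave a Benjamini-Hochberg adjusted p under 0.05 over all genes tested and the fold change was at least 1 on the log2 scale. Of 16069 genes tested in low serum 5.9% were called, 3.5% as higher and 2.4% as lower, and of 15414 in standard serum 7.69% were called, 4.96% as higher and 2.72% as lower. Over the 8 genes with a fold change, the median log2 fold changes were 1.76 (low serum) and 1.85 (standard serum), beside -0.01 and 0.0 over all genes tested. In bulk RNA, more cells with a transcript and more transcript per cell cannot be told apart.

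CSF2 in MDA-MB-231 stood at 28.5 and 31.0 CPM in the 2 low serum 7TGP-NEG libraries and at 97.6 and 93.7 CPM in the 7TGP-POS libraries. In standard serum, the values were 33.5 and 36.3 CPM in 7TGP-NEG and 134 and 130 CPM in 7TGP-POS. The sublines did not overlap in either condition, and the log2 fold change was 1.69 ± 0.0634 (SE, edgeR adjusted p = 2.83e-24) in low serum and 1.87 ± 0.0812 (edgeR adjusted p = 5.27e-12) in standard serum. CSF3 had 14.9 and 14.7 CPM in 7TGP-NEG against 83.2 and 75.8 CPM in 7TGP-POS in low serum. In standard serum CSF3 had 14.3 and 14.7 CPM against 81.7 and 82.8 CPM. Every 7TGP-POS library was above every 7TGP-NEG library, by 5.40-fold in low serum (edgeR adjusted p = 4.37e-28) and 5.46-fold in standard serum (edgeR adjusted p = 5.74e-13).

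CSF1, the most abundant member in TPM among the 7TGP-NEG libraries of this line, was not called in either condition. In low serum it had 366 and 374 CPM in 7TGP-NEG and 275 and 260 CPM in 7TGP-POS. The 7TGP-POS libraries were lower, with a log2 fold change of -0.46 ± 0.0473 (SE) that passed the test (edgeR adjusted p = 1.19e-10) but stayed under the fold required for a call. In standard serum the values were 600 and 577 CPM against 639 and 605 CPM, and the log2 fold change of 0.03 ± 0.0725 had an edgeR adjusted p of 0.829.

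CCL2 showed the highest fold change of the members in MDA-MB-231, from a very low level in 7TGP-NEG. The 7TGP-NEG libraries had 0.261 and 0.467 CPM in low serum, from 8 to 14 counts, and the 7TGP-POS libraries had 10.4 and 9.66 CPM. In standard serum the 7TGP-NEG libraries had only 2 and 4 counts, or 0.0552 and 0.126 CPM, against 2.04 and 2.15 CPM in 7TGP-POS. The sublines were far apart in both, with log2 fold changes of 4.78 ± 0.198 (SE, edgeR adjusted p = 8.39e-23) and 4.47 ± 0.320 (edgeR adjusted p = 4.89e-09). Without the second standard serum 7TGP-NEG library the CCL2 value was 5.11. CCL7, the neighbour of CCL2 on chromosome 17 with 13012 bases between them, was not detectable above the floor in this line: it had 1 and 2 counts in low serum 7TGP-NEG and 0 in the other 6 MDA-MB-231 libraries, so no fold change is given.

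CCL20 and the CXCR3 ligands were also near the lower end of detection in MDA-MB-231. CCL20 had 0.554 and 0.601 CPM in 7TGP-NEG and 1.10 and 1.55 CPM in 7TGP-POS in low serum, and 0.910 and 1.10 CPM against 2.99 and 3.65 CPM in standard serum. The sublines did not overlap within a condition, and CCL20 was 2.29-fold higher (edgeR adjusted p = 0.000474) and 3.20-fold higher (edgeR adjusted p = 2.54e-06) in 7TGP-POS cells. Without the second 7TGP-POS library of low serum, the log2 fold change of CCL20 fell to 0.92 (edgeR adjusted p = 0.033), under the fold required.

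CXCL10 had 0.587 and 0.601 CPM in low serum 7TGP-NEG and 2.44 and 1.73 CPM in 7TGP-POS. The standard serum values were 0.166 and 0.126 CPM against 1.16 and 1.00 CPM. Its log2 fold changes were 1.82 ± 0.259 (SE, edgeR adjusted p = 2.06e-07) and 2.80 ± 0.378 (edgeR adjusted p = 1.31e-05), with no overlap between the sublines. CXCL11 had 0.881 and 0.868 CPM against 2.21 and 2.86 CPM in low serum, and its log2 fold change there was 1.53 ± 0.248 (SE, edgeR adjusted p = 2.30e-06).

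In standard serum CXCL11 rested on 3 to 7 counts in 7TGP-NEG and 13 to 20 counts in 7TGP-POS. The log2 fold change was 1.61 ± 0.512 (SE, edgeR adjusted p = 0.0211), and this call was lost without the first 7TGP-NEG library (1.05, edgeR adjusted p = 0.221), without the second 7TGP-POS library (1.34, edgeR adjusted p = 0.158) and with DESeq2 (1.60, adjusted p = 0.0554). Without the second 7TGP-NEG library the value was 2.41 (edgeR adjusted p = 0.0133). CX3CL1 had 0.946 and 1.34 CPM in 7TGP-NEG and 4.81 and 4.44 CPM in 7TGP-POS in low serum. In standard serum it had 0.910 and 0.566 CPM against 2.40 and 3.15 CPM. Both gaps exceeded the spread between replicates, with log2 fold changes of 2.03 ± 0.215 (SE, edgeR adjusted p = 2.75e-10) and 1.84 ± 0.267 (edgeR adjusted p = 2.87e-05).

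**Figure D2:**
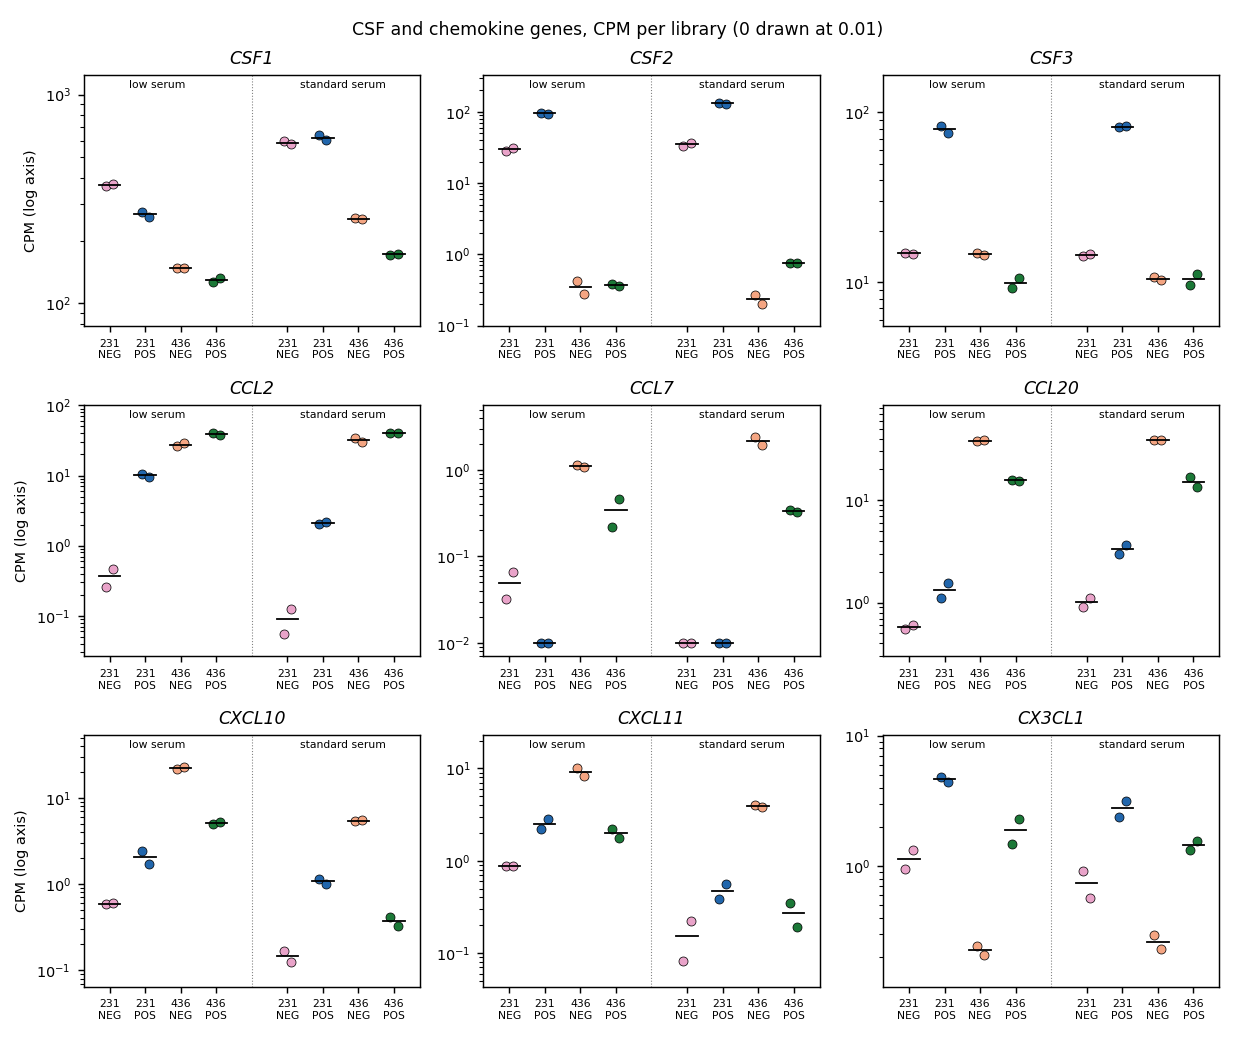
CPM of each gene in each of the 16 libraries on a log axis, with points for replicates, a line at the group mean and a dotted line between low and standard serum; 0 is drawn at 0.01. In MDA-MB-231 the 7TGP-POS points lie above the 7TGP-NEG points for 7 genes, whereas in MDA-MB-436 those of CCL7, CCL20, CXCL10 and CXCL11 lie below.

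The second comparison asked the same of MDA-MB-436. There the chemokines CCL7, CCL20, CXCL10 and CXCL11 were lower in 7TGP-POS cells in both serum conditions and CX3CL1 was higher in both. CSF2 was called higher only in the standard serum test. Thus 1 gene was called higher and 4 lower in low serum, where 10.5% of all genes were called (6.52% higher and 4.03% lower, and 52.0% of genes, with 8 of the 9, passed the adjusted p alone), and 2 higher and 4 lower in standard serum, where 12.5% were called (6.47% higher and 6.06% lower). The median log2 fold changes of the 9 genes were -0.58 (low serum) and -0.62 (standard serum), beside 0.01 and 0.00 over all genes tested.

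CXCL10 in MDA-MB-436 had 22.0 and 23.2 CPM in low serum 7TGP-NEG and 5.06 and 5.34 CPM in 7TGP-POS. At standard serum the values were 5.45 and 5.52 CPM against 0.413 and 0.329 CPM. The 7TGP-POS libraries were 4.39-fold lower in low serum (log2 fold change -2.13 ± 0.112, SE, edgeR adjusted p = 1.08e-19) and 15.1-fold lower in standard serum (-3.91 ± 0.237, edgeR adjusted p = 2.61e-10). CXCL11, separated from CXCL10 by 10184 bases on chromosome 4, had 10.1 and 8.31 CPM against 2.21 and 1.76 CPM in low serum. The standard serum levels were 4.03 and 3.78 CPM against 0.347 and 0.192 CPM. The log2 fold changes of -2.22 ± 0.166 (SE, edgeR adjusted p = 8.24e-15) and -3.85 ± 0.300 (edgeR adjusted p = 7.83e-09) were close to those of CXCL10.

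CCL20 had 38.2 and 38.3 CPM in 7TGP-NEG and 15.8 and 15.5 CPM in 7TGP-POS of MDA-MB-436 in low serum. In standard serum the values were 38.5 and 38.4 CPM against 16.7 and 13.5 CPM. CCL20 was 2.46-fold lower in low serum (edgeR adjusted p = 5.55e-17) and 2.64-fold lower in standard serum (edgeR adjusted p = 1.43e-08), with no overlap. CCL7 was much less abundant, with 31 to 37 counts in 7TGP-NEG against 7 to 13 in 7TGP-POS in low serum, and 77 to 81 against 12 to 16 in standard serum. Its log2 fold changes were -1.72 ± 0.410 (SE, edgeR adjusted p = 0.000499) and -2.72 ± 0.312 (edgeR adjusted p = 2.31e-06).

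The neighbouring CCL2 gene did not move with CCL7. It had 25.9 and 28.7 CPM in 7TGP-NEG and 40.0 and 37.6 CPM in 7TGP-POS in low serum, and 34.3 and 30.0 CPM against 40.6 and 40.7 CPM in standard serum. The 7TGP-POS libraries were the higher ones in both conditions, with log2 fold changes of 0.50 ± 0.0764 (SE, edgeR adjusted p = 5.75e-07) and 0.28 ± 0.0968 (edgeR adjusted p = 0.0214) that stayed under the fold required for a call.

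CX3CL1 had 0.245 and 0.210 CPM in 7TGP-NEG and 1.48 and 2.29 CPM in 7TGP-POS of MDA-MB-436 in low serum, and 0.296 and 0.230 CPM against 1.32 and 1.56 CPM in standard serum. It was 7.98-fold higher in low serum (log2 fold change 3.00 ± 0.363, SE, edgeR adjusted p = 3.48e-09) and 5.24-fold higher in standard serum (2.39 ± 0.348, edgeR adjusted p = 1.68e-05). The 7TGP-NEG values rested on 6 to 10 counts.

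Among the CSF genes of MDA-MB-436, CSF1 had 147 CPM in both 7TGP-NEG libraries and 127 and 132 CPM in 7TGP-POS in low serum. Standard serum gave 256 and 253 CPM against 171 and 172 CPM. The lower 7TGP-POS levels passed the test but not the fold, at -0.20 ± 0.0490 (SE, edgeR adjusted p = 0.000557) and -0.62 ± 0.0734 (edgeR adjusted p = 1.42e-06). CSF3 had 14.9 and 14.5 CPM against 9.23 and 10.6 CPM in low serum, with the 7TGP-POS libraries lower (-0.58 ± 0.0871 on the log2 scale, SE, edgeR adjusted p = 3.08e-07). In standard serum CSF3 had 10.7 and 10.3 CPM against 9.66 and 11.3 CPM, and these ranges overlapped (edgeR adjusted p = 0.623).

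CSF2 was barely expressed in MDA-MB-436, with 8 to 14 counts in 7TGP-NEG and 10 to 12 in 7TGP-POS in low serum, where the groups overlapped (log2 fold change 0.03 ± 0.393, SE, edgeR adjusted p = 0.973). In standard serum it had 8 and 9 counts, or 0.267 and 0.204 CPM, in 7TGP-NEG and 0.760 and 0.768 CPM in 7TGP-POS. That difference was called, with a log2 fold change of 1.64 ± 0.275 (SE, edgeR adjusted p = 7.63e-05), at a level that stayed below 1 CPM.

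**Figure D3:**
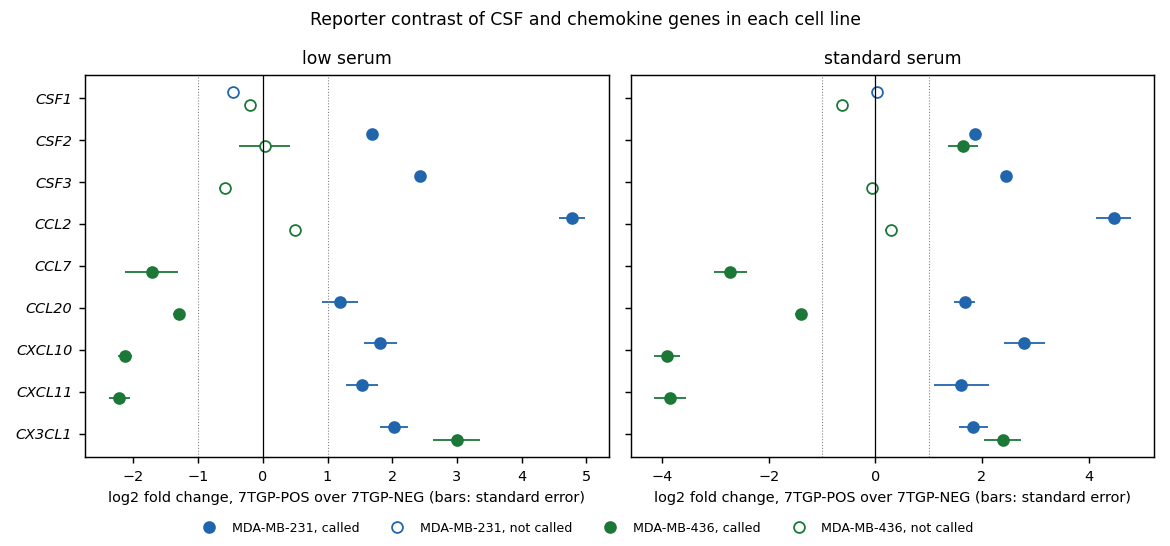
Log2 fold change of 7TGP-POS over 7TGP-NEG for each gene in MDA-MB-231 (blue) and MDA-MB-436 (green), in low serum (left) and standard serum (right). Bars are standard errors back-computed from the test's F statistic. Filled points were called and dotted lines mark the fold required. CCL20, CXCL10 and CXCL11 lie on opposite sides of 0 in the 2 lines, CX3CL1 lies above 0 in both, and CCL7 is drawn for MDA-MB-436 alone.

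Whether the reporter contrast differed between the cell lines was tested as an interaction, the log2 fold change in MDA-MB-231 minus that in MDA-MB-436. The test called 6 genes in low serum and 5 in the standard condition, all with the higher value in MDA-MB-231, where 11.7% and 13.8% of all genes were called (4.72% and 7.02% with the higher value in MDA-MB-231). CCL2 differed by 4.29 ± 0.227 (SE, edgeR adjusted p = 2.89e-19) in low serum and 4.19 ± 0.350 (edgeR adjusted p = 3.15e-08) in standard serum. CXCL10 differed by 3.95 ± 0.277 (SE, edgeR adjusted p = 1.89e-15) and 6.71 ± 0.435 (edgeR adjusted p = 1.06e-09), and CXCL11 by 3.75 ± 0.297 and 5.46 ± 0.596. Without the second standard serum 7TGP-NEG library of MDA-MB-231, the standard serum values were 4.82 for CCL2 and 6.26 for CXCL11. Both CXCR3 ligands and CCL20, which differed by 2.50 ± 0.286 and 3.08 ± 0.225, were called in opposite directions in the 2 lines.

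CSF3 differed by 3.02 ± 0.112 (SE, edgeR adjusted p = 2.06e-24) in low serum and 2.51 ± 0.133 (edgeR adjusted p = 6.22e-11) in standard serum. CSF2 was called in low serum alone (1.66 ± 0.412, edgeR adjusted p = 0.000876), and without the first MDA-MB-436 7TGP-NEG library this value became 1.37 with an adjusted p of 0.0782; in standard serum it was 0.23 ± 0.336 (edgeR adjusted p = 0.722). For CX3CL1, higher in 7TGP-POS cells of both lines, no difference between the lines was called, at -0.97 ± 0.476 (SE, edgeR adjusted p = 0.0958) in low serum and -0.55 ± 0.466 (edgeR adjusted p = 0.378) in standard serum. These standard errors leave room for sizeable differences, and without the first 7TGP-POS library of MDA-MB-436 in low serum the CX3CL1 value was -1.23 with an adjusted p of 0.033. CSF1 differed by less than the fold required in both conditions, although its tests passed.

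The cell lines themselves, each with its own basal medium, were compared within each reporter state. Between the 7TGP-NEG sublines, CSF1, CSF2 and CX3CL1 were higher in MDA-MB-231 and CCL2, CCL7, CCL20, CXCL10 and CXCL11 were higher in MDA-MB-436, in both serum conditions. These 8 called genes, 3 higher and 5 lower in MDA-MB-231, stood beside 41.9% of all genes called in low serum (20.5% higher and 21.4% lower) and 46.7% in the standard condition (21.3% higher and 25.4% lower), so calls between lines were common. CSF2 was 88.1-fold higher in MDA-MB-231 in low serum and 170.0-fold in standard serum. CCL2 was 69.2-fold and 305-fold higher in MDA-MB-436, and CCL20 61.2-fold and 33.2-fold. The 305-fold value rests on 2 and 4 counts of CCL2 in MDA-MB-231, and without the library with 4 counts, the second, it was 475-fold. CSF3 was not called between the 7TGP-NEG sublines in low serum, at 0.11 ± 0.0816 on the log2 scale (SE, edgeR adjusted p = 0.209), with overlapping ranges.

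For CCL7 in low serum, 68 counts in MDA-MB-436 7TGP-NEG against 3 in MDA-MB-231 7TGP-NEG gave a ratio of CPM of 22.4, with a 95% exact binomial interval from 7.35 to 111 that covers counting error only. Where MDA-MB-231 had 0 counts, the level of CCL7 in MDA-MB-436 was at least 24.7-fold higher for 7TGP-NEG cells in standard serum, at least 3.33-fold higher for 7TGP-POS cells in low serum and at least 3.92-fold higher for 7TGP-POS cells in standard serum, each against the floor of 3 counts per library.

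Between the 7TGP-POS sublines the gap was smaller for several chemokines and larger for CSF3. It was also larger for CSF2, although that difference was called in low serum alone. For CSF1 it was larger in standard serum (4.19-fold against 2.67-fold between 7TGP-NEG sublines) and smaller in low serum (2.26-fold against 2.70-fold). CSF3 was 8.75-fold higher in MDA-MB-231 in low serum (edgeR adjusted p = 1.21e-32) and 9.12-fold higher in standard serum (edgeR adjusted p = 7.69e-16). CSF2 was 279-fold and 199-fold higher, and CCL2 remained lower in MDA-MB-231, by 3.55-fold and 16.8-fold. CXCL10 changed order between the conditions: it was 2.27-fold lower in MDA-MB-231 in low serum (edgeR adjusted p = 2.18e-08) and 3.30-fold higher in standard serum (edgeR adjusted p = 3.26e-05). The low serum value fell under the fold required, at -0.98 on the log2 scale, without the second 7TGP-POS library of MDA-MB-231. CXCL11 was not called in either condition, at 0.46 ± 0.208 (edgeR adjusted p = 0.041) and 0.97 ± 0.424 (edgeR adjusted p = 0.045) on the log2 scale (SE). Both tests passed, but the values stayed under the fold required. In all, 4 genes were called higher and 4 lower in MDA-MB-231 in low serum, beside 38.9% of all genes called (18.1% higher and 20.8% lower), and 5 higher and 3 lower in standard serum, beside 45.4% (20.8% higher and 24.6% lower).

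Ordered by mean CPM within a serum condition, CSF1 ran from MDA-MB-231 to MDA-MB-436 and CCL20 and CCL7 ran the other way, with MDA-MB-436 7TGP-NEG highest. CCL2 was highest in the 7TGP-POS subline of MDA-MB-436 and lowest in 7TGP-NEG cells of MDA-MB-231 in both conditions, with no overlap between neighbours. CXCL10 and CXCL11 were highest in MDA-MB-436 7TGP-NEG in both. CX3CL1 had its highest mean in the 7TGP-POS cells of MDA-MB-231, followed by those of MDA-MB-436, with both 7TGP-NEG sublines below and no overlap between neighbours. Neighbouring groups overlapped for CSF2 between the MDA-MB-436 sublines in low serum, for CSF3 between the 7TGP-NEG sublines in low serum and between the MDA-MB-436 sublines in standard serum, for CXCL11 between the 7TGP-POS sublines in low serum and, in standard serum, between the 7TGP-POS cells of MDA-MB-436 and the 7TGP-NEG cells of MDA-MB-231, and for CCL7 where both were at 0.

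The receptors of these ligands were scarce in the same libraries. Of 14 receptor genes, 8 to 11 had at most 3 counts in both libraries of a group, CCR2, CCR6 and CXCR3 among them in all 8 groups. In MDA-MB-231, 1 of 9 receptors tested in low serum was called, CCR1, a receptor for several CC chemokines, with 0.554 and 0.935 CPM in 7TGP-NEG and 2.44 and 2.01 CPM in 7TGP-POS (log2 fold change 1.59 ± 0.273, SE, edgeR adjusted p = 7.06e-06). In standard serum edgeR called 0 of 6, 0 had an unadjusted p under 0.05 and DESeq2 called 0, and CCR1 had a log2 fold change of 0.91 ± 0.460 (edgeR adjusted p = 0.148).

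In MDA-MB-436, CX3CR1, the receptor of CX3CL1, was higher in 7TGP-POS cells in both serum conditions. Low serum gave 2 and 1 counts against 47 and 33, a ratio of CPM of 27.4 with a 95% exact binomial interval from 9.06 to 136 (edgeR adjusted p = 1.03e-08). Standard serum gave 5 and 4 counts against 43 and 27 (log2 fold change 2.68 ± 0.519, SE, edgeR adjusted p = 0.000315). The ligand and its receptor were thus both higher in the 7TGP-POS subline of this line, each at a low level. ACKR3, an atypical receptor that binds CXCL11 and CXCL12, had 0 counts in both low serum 7TGP-NEG libraries against 15 and 13, at least 4.78-fold higher in 7TGP-POS (edgeR adjusted p = 2.81e-05), and in standard serum 5 and 0 counts against 16 and 13 (edgeR adjusted p = 0.0259). In low serum CSF3R was called as well, with 2 and 0 counts against 5 and 9 (edgeR adjusted p = 0.0301). DESeq2 called 2 receptors in low serum and 1 in standard serum in this line.

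Other chemokines and CSF-related ligands were counted from a list of 24 genes, 22 of which were matched. In MDA-MB-231 edgeR called 0 of the 12 tested in low serum and 0 of the 10 tested in the standard condition, with an unadjusted p under 0.05 for 1 higher and 1 lower gene in each, and DESeq2 called 0 as well. In MDA-MB-436, 3 were higher and 3 lower in 7TGP-POS in low serum, and 1 higher and 4 lower in standard serum. Of all genes tested, 10.5% were called in low serum (6.52% higher and 4.03% lower) and 12.5% in standard serum (6.47% and 6.06%). DESeq2 called 1 higher and 3 lower in low serum and 0 higher and 3 lower in standard serum. IL34, the second ligand of CSF1R, had 3.70 and 3.67 CPM in 7TGP-NEG and 1.52 and 1.29 CPM in 7TGP-POS in low serum, and 6.99 and 6.92 CPM against 1.46 and 2.09 CPM in standard serum. Its log2 fold changes were -1.40 ± 0.210 (SE, edgeR adjusted p = 3.68e-07) and -2.05 ± 0.217 (edgeR adjusted p = 4.76e-07), lower in both.

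KITLG, the stem cell factor, fell in the 7TGP-POS cells of MDA-MB-436 as well, by 2.29 (log2) in low serum (edgeR adjusted p = 4.80e-12) and by 2.63 in standard serum (edgeR adjusted p = 3.76e-08). CXCL12, the ligand of CXCR4 and ACKR3, fell by 1.35 (edgeR adjusted p = 7.65e-07) and by 1.58 (edgeR adjusted p = 9.08e-07). CXCL14 was higher in low serum, with 1.13 and 2.20 CPM in 7TGP-NEG against 6.22 and 5.01 CPM in 7TGP-POS (1.77 ± 0.264 on the log2 scale, SE, edgeR adjusted p = 3.28e-05), and was not called in standard serum (0.28 ± 0.244). CCL17 was called higher in both conditions from 3 to 5 counts per 7TGP-NEG library. The neighbours CXCL9 and IL3 of the CXCL10 and CSF2 genes had at most 3 counts in every group.

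**Figure D4:**
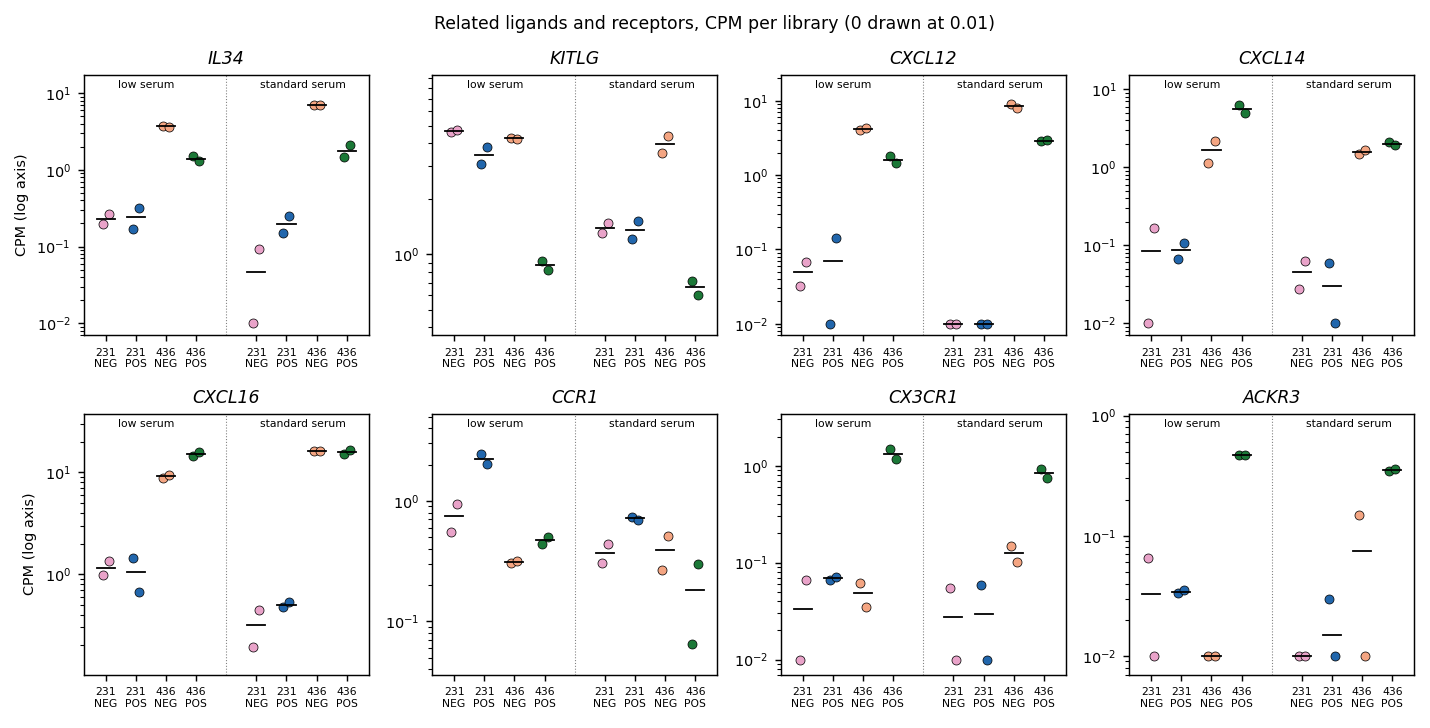
CPM per library on a log axis for 5 related ligands and 3 receptors, drawn as for the 9 genes, with 0 at 0.01. In MDA-MB-436, IL34, KITLG and CXCL12 are lower and CX3CR1 and ACKR3 are higher in 7TGP-POS libraries of both serum conditions; CXCL16 was not called in any reporter contrast.

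Transcription factors of the NF-kB, STAT and IRF families were expressed in all groups. Of 11 tested, edgeR and DESeq2 each called 0 in MDA-MB-231 in both conditions and 0 in MDA-MB-436 in low serum, while 7 and 5 genes had an unadjusted edgeR p under 0.05 in MDA-MB-231 in low and standard serum and 8 in MDA-MB-436 in low serum, all with small fold changes. Such a p was common over all genes tested in these contrasts, with 7261 of 16069, 6371 of 15414 and 9062 of 16069. IRF7, a regulator of interferon genes, was among the genes called lower in the 7TGP-POS cells of MDA-MB-436 in standard serum (log2 fold change -1.16 ± 0.218, SE, edgeR adjusted p = 0.00471). No relation between IRF7 and the chemokines was tested.

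Of 10 canonical Wnt target genes, 1 was called higher in the 7TGP-POS cells of MDA-MB-231 in each condition, LGR5 in low serum and RNF43 in standard serum. Over all genes, 5.9% and 7.69% were called in these contrasts. The summed level of the list in 7TGP-NEG against 7TGP-POS cells was 45.6 and 44.2 against 57.6 and 59.5 CPM in low serum. In standard serum it was 36.1 and 35.7 against 40.0 and 41.8 CPM. In MDA-MB-436 7TGP-POS, NKD1 was lower in low serum and SP5 and RNF43 were lower in standard serum, beside 10.5% and 12.5% of all genes called. RNF43 had at most 3 counts in each of those standard serum 7TGP-POS libraries. The summed level of the list was higher in 7TGP-POS cells of this line, at 60.0 and 60.5 against 65.5 and 65.2 CPM in low serum. In standard serum it was 52.8 and 51.6 against 66.5 and 66.4 CPM. AXIN2, a widely used target, had 7.96 and 9.21 CPM in MDA-MB-231 7TGP-NEG and 13.6 and 13.0 CPM in 7TGP-POS in low serum (log2 fold change 0.65 ± 0.112, SE, edgeR adjusted p = 8.29e-06), under the fold required. In the other 3 reporter contrasts the AXIN2 test did not pass: the log2 fold change was 0.33 ± 0.192 (SE, edgeR adjusted p = 0.210) in MDA-MB-231 in standard serum, 0.36 ± 0.185 (edgeR adjusted p = 0.106) in MDA-MB-436 in low serum and -0.12 ± 0.222 (edgeR adjusted p = 0.684) in MDA-MB-436 in standard serum.

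Of the 10 leukocyte markers, 7 were tested in each condition. PTPRC, the pan-leukocyte marker CD45, was called higher in the 7TGP-POS cells of MDA-MB-231 in low serum (1.14 ± 0.188 on the log2 scale, SE, edgeR adjusted p = 3.61e-06) and not in standard serum (0.32 ± 0.155), while ITGAM was lower in those of MDA-MB-436 in both. LYZ was lower in the 7TGP-POS cells of MDA-MB-231 in standard serum. Each reporter contrast thus called 1 of 7. Of all genes, 5.9% (low serum) and 7.69% (standard serum) were called in MDA-MB-231 and 10.5% and 12.5% in MDA-MB-436. The summed level of the list in 7TGP-NEG against 7TGP-POS cells of MDA-MB-231 was 17.5 and 20.7 against 18.2 and 17.8 CPM in low serum, and 14.4 and 13.9 against 13.2 and 13.4 CPM in standard serum. In MDA-MB-436 it was higher in 7TGP-POS cells in low serum, at 10.7 and 10.9 against 12.6 and 13.5 CPM, and lower in standard serum, at 9.45 and 10.4 against 4.82 and 6.17 CPM. The part of other cells in the differences above was not tested.

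Of 4 mesenchymal markers (VIM, CDH2, FN1 and ZEB1), VIM was called lower in the 7TGP-POS cells of MDA-MB-231 in low serum (-1.05 ± 0.0516 on the log2 scale, SE, edgeR adjusted p = 2.69e-20) and in standard serum (-1.03 ± 0.0789, edgeR adjusted p = 1.17e-08). FN1, fibronectin, was called lower there in standard serum (-2.14 ± 0.0952, edgeR adjusted p = 3.75e-11) and had -0.03 ± 0.0490 in low serum (edgeR adjusted p = 0.659). CDH2 had a value of 0.80 ± 0.213 in low serum in that line (edgeR adjusted p = 0.00432), under the fold required. In MDA-MB-436, FN1 was called higher in 7TGP-POS cells in low serum (1.37 ± 0.0516, edgeR adjusted p = 1.42e-24), and VIM had 0.16 ± 0.0515 in low serum and 0.49 ± 0.0784 in standard serum, both under the fold required. Calls over all genes were 5.9% (low serum) and 7.69% (standard serum) in MDA-MB-231 and 10.5% and 12.5% in MDA-MB-436. Of 4 epithelial markers (CDH1, EPCAM, KRT8 and KRT18), edgeR, DESeq2 and limma each called 0 in every reporter contrast, with an unadjusted edgeR p under 0.05 for 2 lower in MDA-MB-231 in both conditions, 2 higher in MDA-MB-436 in low serum and 0 in MDA-MB-436 in standard serum. Over all genes tested, in either direction, such a p was seen in low serum for 7261 (MDA-MB-231) and 9062 (MDA-MB-436) of 16069. In standard serum it was seen for 6371 and 8444 of 15414.

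Finally, genes with the most similar pattern over the 16 libraries were sought among protein-coding genes averaging 1 CPM or more, by Pearson's r of log2(CPM + 1) centred within each serum condition. The libraries share 2 cell lines and 4 sublines, so the points are not independent, and the values are given as a description. The highest r was 0.994 for CSF1 with GSTM2, 0.998 for CSF2 with MAGEC1, 0.990 for CSF3 with NXF3, 0.987 for CCL2 with PMM2, 0.983 for CCL7 with ITGAX, 0.995 for CCL20 with MGST1, 0.983 for CXCL10 with PDIA3, 0.983 for CXCL11 with CLPTM1L and 0.981 for CX3CL1 with C15orf48. Among the members themselves, CXCL10 and CXCL11 had an r of 0.933, whereas CCL2 and CCL7 had 0.661 and CSF2 and CSF3 had 0.817.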

How the data were processed

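Bulk RNA-Seq counts and TPM values of 16 libraries (8 groups of 2 biological replicates) were used as deposited. Per the study's methods, the authors aligned reads to ribosomal RNA with Bowtie (1.2) and to hg19 with STAR, which also counted them per gene of Gencode v19. The submitters' processing notes name STAR 2.6.1a, edgeR 3.22.5 and limma. The count values deposited by the authors are whole numbers per gene without normalization; how the authors computed the deposited TPM values is not given in the sources used here. The labels name a poly(A) kit for all libraries, whereas the methods give ribosomal RNA depletion for low serum.

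Symbols came from Gencode v44 lifted to GRCh37 (55538 of 57820 identifiers matched). Protein-coding genes with at least 10 summed counts were tested in each serum condition with TMM factors and edgeR's robust quasi-likelihood model over 4 groups, with Benjamini-Hochberg adjustment. Serum conditions were fitted separately. Each SE is the size of the log2 fold change over the square root of edgeR's F statistic, and can understate the error of genes with few counts. A call needed an adjusted p under 0.05 and a log2 fold change of at least 1 in size. CPM values were computed from total counts, bounds use 3 counts per library, and intervals and floors cover counting error only. The replicates are biological per the labels. Replicate numbers were not taken as pairs. Genes were named by a rule: all members, and for each list up to 4 called genes per comparison by adjusted p; genes outside it were chosen after their values were seen. The members and lists were chosen with earlier results of these data known. Alternatives were DESeq2, other size factors and filters, all biotypes, a prior count of 2, limma on log2(TPM + 1) and log2(TPM + 0.1), a replicate block, only the 4 libraries compared, and each library left out. The models were tested on simulated counts. Some results are not reported here. Promoters are the 250 bases before the Gencode v44 start. Software comprised edgeR 4.0.16, DESeq2 1.42.0 and limma 3.58.1 in R 4.3.3, and pandas 2.3.3, matplotlib 3.10.9, scipy 1.17.1 and numpy 2.4.6 in Python 3.11.15.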

Additional observations from a re-analysis of the deposited data

Results flagged for a closer look

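The reporter contrast was compared between the cell lines by the interaction test, here judged by an edgeR adjusted p under 0.05 without the fold required. Values are the log2 fold change in MDA-MB-231 minus that in MDA-MB-436. In low serum 7 genes passed: CCL2 (4.29), CXCL10 (3.95), CXCL11 (3.75), CSF3 (3.02), CCL20 (2.50), CSF2 (1.66) and CSF1 (-0.26). Among all 16069 genes tested there, 7345 passed as well. In standard serum 6 genes passed: CXCL10 (6.71), CXCL11 (5.46), CCL2 (4.19), CCL20 (3.08), CSF3 (2.51) and CSF1 (0.65). The same rule was met by 6355 of the 15414 genes tested under that condition, so passing it was common. The difference of CSF1 passed the adjusted p in both conditions with opposite signs and a size under the fold required for a call.

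CSF1 in MDA-MB-231 had values of opposite sign in the serum conditions, with every low serum 7TGP-POS library below the 7TGP-NEG libraries (log2 fold change -0.46) and every standard serum 7TGP-POS library above them (0.0276 by the fit, with an edgeR adjusted p of 0.829). The standard serum value turned negative without the first 7TGP-POS library (-0.0323) or the second 7TGP-NEG library (-0.0139), so its direction rests on single libraries. This difference between conditions was not tested, and serum, day and library preparation cannot be told apart. With 2 replicates a group, single libraries could not be screened for standing apart.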

How the results depend on the processing

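Of 1460 alternative log2 fold changes of the member genes in 82 results, 1418 kept their direction and side of the threshold, 22 lost the call, 3 gained it and 17 changed sign. Many of these alternatives could hardly move a value, such as fits without a library of a group not compared. The total kept is therefore no measure of stability over replicates. Counts of called genes moved by over 1.5 times in 3 of 188 alternatives: with limma on log2(TPM + 1), low serum counts fell to 4 of 9 in MDA-MB-231 7TGP-POS against 7TGP-NEG and to 5 between the 7TGP-POS sublines, and with the adjusted p alone the count in MDA-MB-436 in low serum rose to 8. Limma on this scale shifted the median over all genes by -0.13 (MDA-MB-231) and -0.15 (MDA-MB-436) in the low serum reporter contrasts and called 140 genes higher and 174 lower in MDA-MB-231, against 563 and 385 by edgeR; it understates changes of low genes, and CX3CL1 lost its calls there in both lines.

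The sign changed only for values near 0 or for genes whose test had not passed. CSF2 in MDA-MB-436 in low serum became -0.0036 with DESeq2, -0.0039 with its size factors, -0.0015 with the stricter filter, -0.10 and -0.16 with limma at pseudocounts of 1 and 0.1, and between -0.2132 and 0.3366 with single libraries left out, being negative without the second MDA-MB-231 7TGP-NEG library (-0.0097), the second MDA-MB-436 7TGP-NEG library (-0.2132) or the first MDA-MB-436 7TGP-POS library (-0.0405). CSF3 in MDA-MB-436 in standard serum became 0.03 with limma at both pseudocounts (0.0312 and 0.0326) and 0.0194 without the first 7TGP-POS library, and CSF3 between the low serum 7TGP-NEG sublines became -0.27 and -0.29 with limma. CSF1 in MDA-MB-231 in standard serum ranged from -0.0323 to 0.0871 with single libraries left out, being negative without the first 7TGP-POS library and, at -0.0139, without the second 7TGP-NEG library. The CX3CL1 difference between the lines became 0.1767 (low serum) and 0.1737 (standard serum) with limma on log2(TPM + 1). The causes were not tested.

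With each library left out, the counts called ranged from 6 to 7 in MDA-MB-231 in both conditions, stayed at 5 and 6 in MDA-MB-436, ranged from 5 to 7 and stayed at 5 for the difference between lines, stayed at 8 between 7TGP-NEG sublines, and ranged from 7 to 8 and from 7 to 9 between 7TGP-POS sublines. A lone remaining library was assumed to vary like the other groups. CXCL11 between the 7TGP-POS sublines in standard serum was called without the first MDA-MB-231 library (1.18) or the first MDA-MB-436 library (adjusted p = 0.0267), and CX3CL1 there fell to 0.97 without the second MDA-MB-231 library.

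A fit with the replicate number as a block called the same numbers of members, 7 in MDA-MB-231 in both conditions, 5 and 6 in MDA-MB-436, 6 and 5 for the difference between lines and 8 in each comparison of lines. Deviations of same-numbered libraries correlated between -0.13 and 0.03 in low serum and between -0.03 and 0.22 in standard serum, where 4 of 6 pairs of groups were above 0.1; not every pair was, so the numbers were not taken as pairs. In standard serum the block raised the genes passing the adjusted p alone from 5084 to 5569 in MDA-MB-231 and from 7631 to 8137 in MDA-MB-436. Depth limits CCL7 and CXCL11 in MDA-MB-231 and CSF2 in MDA-MB-436, which rest on few counts. The same holds for CCL2 in MDA-MB-231 7TGP-NEG and CX3CL1 in MDA-MB-436 7TGP-NEG. In standard serum CXCL10 had 4 to 6 counts in MDA-MB-231 7TGP-NEG and 12 to 19 in MDA-MB-436 7TGP-POS, where CXCL11 had 7 to 16. The difference of 6.71 between the lines for CXCL10 rests on these counts.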

Other observations

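CXCL16, a transmembrane chemokine like CX3CL1, had higher levels in both MDA-MB-436 sublines than in those of MDA-MB-231 in low serum, with 0.979 and 1.34 CPM in MDA-MB-231 7TGP-NEG, 1.44 and 0.670 CPM in MDA-MB-231 7TGP-POS, 8.88 and 9.46 CPM in MDA-MB-436 7TGP-NEG and 14.7 and 15.8 CPM in MDA-MB-436 7TGP-POS. Its reporter contrast in MDA-MB-436 was 0.72 ± 0.117 on the log2 scale in low serum (SE, edgeR adjusted p = 1.98e-06), under the fold required for a call, and -0.09 ± 0.124 in standard serum (edgeR adjusted p = 0.602).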
